A study of Mus musculus with 531 samples.

Results

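The naive pluripotency transcription factors are the 10 genes Nanog, Klf2, Klf4, Klf5, Esrrb, Tfcp2l1, Tbx3, Zfp42, Prdm14 and Nr0b1, followed here by name through single cells from mouse embryos of 3 stages, E4.5, E5.5 and E6.5, before and after implantation. They are 10 of the 22084 genes counted, and all 10 had a row. Levels are counts per 1000000 reads of a cell or of a sum of cells (CPM), or log2(CPM + 1).

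These factors form the network that holds the naive state of the epiblast, the tissue from which the embryo proper arises. NANOG and the orphan nuclear receptor ESRRB sit near its centre. The Krüppel-like factors KLF2, KLF4 and KLF5 and the CP2-type factor TFCP2L1 uphold self-renewal of embryonic stem cells, and TBX3, NR0B1 (DAX1), PRDM14 and the zinc finger protein ZFP42 (REX1) act around them. After implantation the network is taken down and the epiblast becomes formative and then primed, while Nanog is known to return in the posterior epiblast before gastrulation. Several members also act in extraembryonic tissue: KLF5 in trophectoderm, TBX3 in extraembryonic endoderm and ESRRB in extraembryonic ectoderm.

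The promoters of 4 members are shown because their paths were the furthest apart: Klf2 and Esrrb were nearly silent at E5.5, Nanog fell and stood high again at E6.5, and Zfp42 kept the largest share of its E4.5 level at E5.5. Each is 300 bases, 250 before the start site and 50 after it, from RefSeq on GRCm38.p6, and entries were found for 7 of the 10 members (all but Klf5, Tbx3 and Prdm14). Capitals mark matches on either strand to the core of the POU octamer (ATGCAAA) or to a KLF box (GGGNGTGG), of which the Klf2 and Esrrb windows held none. The Nanog window is chr6:122707239-122707538 (+), the Zfp42 window chr8:43306960-43307259 (−), the Klf2 window chr8:72318812-72319111 (+) and the Esrrb window chr12:86360867-86361166 (+).

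Nanog: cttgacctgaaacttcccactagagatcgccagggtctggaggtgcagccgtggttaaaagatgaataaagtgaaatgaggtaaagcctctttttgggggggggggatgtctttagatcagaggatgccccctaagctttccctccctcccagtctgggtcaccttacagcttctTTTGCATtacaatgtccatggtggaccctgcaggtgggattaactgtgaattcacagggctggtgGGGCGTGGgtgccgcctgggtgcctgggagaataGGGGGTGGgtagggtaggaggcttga

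Zfp42: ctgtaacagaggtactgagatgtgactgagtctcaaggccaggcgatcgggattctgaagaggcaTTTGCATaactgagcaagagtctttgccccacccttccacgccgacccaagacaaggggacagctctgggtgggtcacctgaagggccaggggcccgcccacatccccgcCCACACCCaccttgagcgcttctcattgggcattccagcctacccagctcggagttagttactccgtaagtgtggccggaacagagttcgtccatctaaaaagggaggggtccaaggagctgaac

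Klf2: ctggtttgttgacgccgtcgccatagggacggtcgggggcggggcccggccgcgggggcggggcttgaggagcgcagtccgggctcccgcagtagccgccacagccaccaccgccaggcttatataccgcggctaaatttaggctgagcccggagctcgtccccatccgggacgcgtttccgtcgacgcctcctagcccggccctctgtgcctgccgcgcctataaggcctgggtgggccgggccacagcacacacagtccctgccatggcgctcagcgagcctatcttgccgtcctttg

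Esrrb: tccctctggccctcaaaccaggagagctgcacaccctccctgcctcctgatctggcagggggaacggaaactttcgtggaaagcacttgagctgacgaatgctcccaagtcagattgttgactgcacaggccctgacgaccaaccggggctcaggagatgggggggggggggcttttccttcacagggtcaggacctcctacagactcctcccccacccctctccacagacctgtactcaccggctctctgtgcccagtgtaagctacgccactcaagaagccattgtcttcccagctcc

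The octamer core lay 75 bases before the start site of the Nanog window shown, and 151 before a second start site of that gene. In the Zfp42 window it lay 185 bases before the start site. It was held by 4.63% of the 32851 promoters in the table. The KLF box, held by 17.6% of all promoters, was found in the windows of Nanog, Zfp42 and Tfcp2l1. An ESRRB motif (TCAAGGTCA, in 0.423% of promoters) and a STAT motif (TTCCNGGAA, in 1.15%) were in none of the 9 windows of the 7 members. CG dinucleotides numbered 40 in the window of Klf4, 32 in that of Klf2, 21 in Tfcp2l1, 14 in Nr0b1, 11 in Zfp42, 7 in Esrrb and 4 in Nanog, and the median of all promoters was 7. A match of letters is a description and says nothing of binding.

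Cells came from C57Bl/6Babr embryos and were picked by pipette for parallel methylome and transcriptome sequencing, in 5 embryos at E4.5, 1 at E5.5 (labelled embryo 7) and 2 at E6.5. The trophectoderm had been removed at E4.5, the visceral endoderm and extraembryonic ectoderm separated at E5.5, and extraembryonic tissue taken off at E6.5. The labels name no treatment or mutation. Of 264 cells, 217 had at least 50000 reads and 2000 genes and were kept, 75, 59 and 83 by stage, with medians of 918469, 1511811 and 1107378 reads. Median genes per kept cell were 6985, 5242 and 9304. Stage and the prefix of the cell labels cannot be told apart, and the E5.5 embryo stands alone, so that its spread is borrowed from the other stages in every test below.

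Within each stage, cells were sorted by marker genes without using the 10 factors. The cells with most epiblast markers raised are called epiblast-marker cells here: 24 from E4.5 (4 to 6 per embryo), 51 from the E5.5 embryo and 31 from E6.5 (17 and 14). At E4.5 their leading genes were Tdgf1, Slc7a3, Igfbp2 and Morc1, and 7 of 10 epiblast markers were raised. At E5.5 they were all cells short of the endoderm markers, and Pou5f1 and Tdgf1 led. The E6.5 cells raised 8 of 10 epiblast markers over the rest of their stage, but genes known from extraembryonic ectoderm (Gjb5, Wnt7b) stood among their leading genes, and reads of other lineages were spread over them. The 15 endoderm markers summed to a median of 3382 CPM per cell (347 to 9679), against 92.3 CPM at E4.5 (0 to 5242) and 1.2 CPM at E5.5 (0 to 118), and all 15 endoderm and all 10 trophectoderm markers had reads in both E6.5 embryos. Summed per embryo, the 10 epiblast markers read 1665 and 2367 CPM at E6.5, below the 15 endoderm markers at 4376 and 3085 CPM. In the E5.5 embryo the epiblast list read 3306 CPM against 14 CPM. Among E4.5 embryos it read from 3186 to 4492 CPM, against 17.5 to 2381 CPM. The trophectoderm list summed to 707 and 528 CPM in the E6.5 embryos and 137 CPM at E5.5, where Elf5, Hand1, Tead4 and Esx1 were at 0. At E5.5 Gata4, Gata6, Sox17, Sox7, Foxa2, Pdgfra, Hnf4a and Cubn were at 0. The part of these reads in the E6.5 values was not tested. Endoderm-like cells numbered 44, 8 and 14, mesoderm-like cells 23 (all in E6.5 embryo 2), and 7 cells at E4.5 and 15 at E6.5 stayed unnamed.

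In epiblast-marker cells of E4.5 embryos, 9 of the 10 factors were well expressed and Prdm14 was nearly absent. Per kilobase of exon, which allows genes to be set against each other, Nr0b1 was at 95.4 ± 60.4 CPM (SD, n = 5 embryos), followed by Zfp42 at 54.4 ± 24.7, Nanog at 45.5 ± 16.2 and Klf2 at 39.7 ± 11.2. Klf5 came next at 20.1 ± 9.20, Tfcp2l1 at 13.5 ± 11.2, Esrrb at 13.1 ± 3.98 and Klf4 at 11.1 ± 5.59, and Tbx3 was lower at 5.64 ± 1.84. The ranges of neighbours overlapped all along this order down to Tbx3, and only Prdm14, at 0.401 ± 0.803, lay below every other range.

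**Figure D1:**
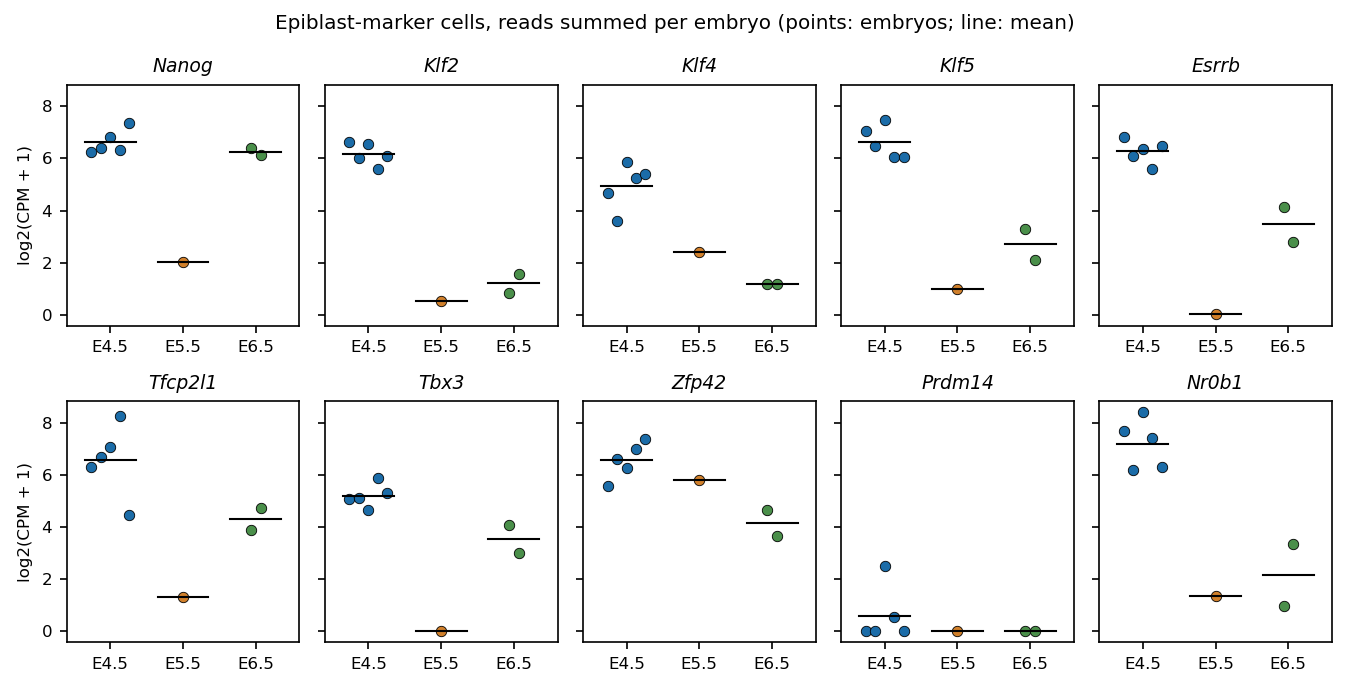
log2(CPM + 1) of the 10 factors in epiblast-marker cells, with reads summed per embryo (points: 5 embryos at E4.5, 1 at E5.5, 2 at E6.5; line: mean). Klf2, Klf5, Esrrb, Tbx3, Tfcp2l1, Nr0b1 and Nanog all sat far below every E4.5 embryo at E5.5; Zfp42 stayed within the E4.5 range and Nanog returned near it at E6.5.

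From E4.5 to E5.5 all 10 factors read lower in epiblast-marker cells, and 5 fell past the threshold of edgeR's quasi-likelihood test (adjusted p under 0.05 over 13298 genes): Nanog, Klf2, Klf5, Esrrb and Tbx3. Over all genes tested, 0.323% were called lower and 0.173% higher. The median log2 fold change of the 10 was -6.62, beside 0 over all genes. Nr0b1 and Tfcp2l1, which read lower than every E4.5 embryo too, did not reach the threshold, and Klf4 and Zfp42 were not near it. When cells were sorted by marker lists in place of clusters, Esrrb alone was called.

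The nuclear receptor Esrrb showed the deepest drop among members with a read. It stood at 113, 67.6, 81.9, 47.5 and 86.8 CPM in E4.5 embryos 1 to 5, and 1 read of 79265663 was left in 51 E5.5 cells, or 0.0126 CPM. That is a ratio of 6284, and its counting interval is wide (95% Poisson, 1128 to 248200). The log2 fold change was -11.92 (SE 1.60, edgeR adjusted p = 0.00415). Of all members, Esrrb was the only one called in all 22 settings run for this comparison, with adjusted p between 7.98e-12 and 0.032.

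Tbx3, a T-box factor shared with extraembryonic endoderm, had 33.1, 33.6, 24.2, 57.1 and 38.8 CPM in the E4.5 embryos and no read at E5.5. Set against a limit of 3 reads over the E5.5 sum (0.0378 CPM), the E4.5 mean was at least 987-fold higher (edgeR adjusted p = 0.0090). No E5.5 epiblast-marker cell held a Tbx3 read, 0 of 51, which allows a share of cells with a read of up to 5.88%. The call was lost with limma on cell means (adjusted p = 0.224 and 0.159 at pseudocounts of 1 and 0.1) and with cells sorted by marker lists (edgeR adjusted p = 0.235). It was also lost without cells of 1000 CPM or more of endoderm markers, called the endoderm limit, a choice made after seeing the data. This limit drops E4.5 embryo 5, left with 2 cells, and leaves 6 cells of 1 embryo at E6.5. Over the 22 settings run for this comparison the log2 fold change of Tbx3 ran from -13.95 to -3.485.

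Of the Krüppel-like factors, Klf2 and Klf5 passed the threshold at E5.5 and Klf4 did not. Klf2 went from 96.8, 63.8, 91.6, 46.9 and 67.2 CPM at E4.5 to 0.442 at E5.5, a log2 fold change of -7.25 (SE 1.26, edgeR adjusted p = 0.015), and the 35 reads left came from 2 of 51 cells. With limma on cell means Klf2 was not called (adjusted p = 0.300 and 0.282 at pseudocounts of 1 and 0.1). Klf5 went from 130, 87.1, 176, 64.9 and 65.2 CPM to 1.01 (read in 4 of 51 cells), a log2 fold change of -6.58 (SE 1.19, edgeR adjusted p = 0.021). Klf4 began lower, at 24.6, 11.2, 56.4, 36.8 and 40.9 CPM, and stood at 4.31 at E5.5, a log2 fold change of -2.89 (SE 1.38, edgeR adjusted p = 0.46). The call of Klf5 was lost without E4.5 embryo 1 or 3 (edgeR adjusted p = 0.051 and 0.056). Over the 22 settings run for this comparison its log2 fold change ran from -9.13 to -4.78. Klf2 was left at 0.603% of its mean E4.5 level, Klf5 at 0.965% and Klf4 at 12.7%. These shares moved with the choice of E5.5 cells: in the 37 cells with 200000 reads and 4000 genes they were 1.01%, 1.61% and 21.1%, and in the 36 cells of the E5.5 cluster named for epiblast markers 0.174%, 1.61% and 21.3%. The E5.5 value of Klf4 rested on few cells, since 7 of 51 held a read and 5 of them made up 99.3% of its summed CPM. Whether Klf4 fell less than Klf2 or Klf5 was not tested.

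Nanog, the homeodomain factor at the centre of the network, read 75.2, 83.7, 112, 78.1 and 162 CPM at E4.5 and 3.04 at E5.5, a log2 fold change of -4.98 (SE 0.91, edgeR adjusted p = 0.021). The call was lost without E4.5 embryo 3 (edgeR adjusted p = 0.051), in all kept cells (0.0751) and with limma (0.128 and 0.0671 at pseudocounts of 1 and 0.1). Over the 22 settings run for this comparison the log2 fold change of Nanog ran from -6.41 to -3.55. A read was still seen in 22 of 51 cells at E5.5 (43.1%, exact Clopper-Pearson 95% interval 29.3 to 57.8%), but the median of those cells was 1.56 CPM, against 90.4 CPM in the 23 of 24 cells with a read at E4.5. Endoderm-like cells, in which the gene is not thought to be active, held a read in 15 of 44 at E4.5 (34.1%, at a median depth of 944165 reads against 1497628), so the share with any read does not by itself set the E5.5 cells apart. By level, the E5.5 epiblast-marker cells read 3.04 CPM in sum and the 8 endoderm-like cells of the same embryo 0.447. With every cell thinned to 50000 reads, Nanog was read in 16 of 24 epiblast-marker cells at E4.5, 7 of 51 at E5.5, and 4 of 44 endoderm-like cells at E4.5.

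Nr0b1, an orphan receptor encoded on the X chromosome, varied most between E4.5 embryos after Tfcp2l1 and Prdm14, at 203, 71.1, 339, 171 and 78.6 CPM, and read 1.56 at E5.5 (log2 fold change -6.67, SE 1.44, edgeR adjusted p = 0.058). Tfcp2l1, a CP2-type factor, ran from 21.3 CPM in embryo 5 to 301 in embryo 4, with 78.2, 102 and 135 in embryos 1 to 3, and read 1.48 at E5.5 (log2 fold change -6.34, SE 1.44, edgeR adjusted p = 0.076). The E5.5 values rested on 3 of 51 cells for Nr0b1, 1 of them at 105 CPM, and on 5 of 51 for Tfcp2l1. Both missed the threshold in the main test beside a spread of 63.3% and 82.8% of the mean between E4.5 embryos. Without E4.5 embryo 5 both were called, with edgeR adjusted p of 0.026 for Nr0b1 and 0.0084 for Tfcp2l1, and Nr0b1 was also called without either E6.5 embryo (0.017 both times). Both were called with DESeq2 (adjusted p = 1.01e-09 and 1.79e-08), without a filter on low counts (edgeR adjusted p = 2.08e-07 and 6.82e-06) and with cells thinned to 50000 reads (0.00154 and 0.00367), which each gave 7 members in all. On simulated counts DESeq2 made mostly false calls at this design.

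Zfp42, the naive marker REX1, kept 53.2% of its level. Its E4.5 values were 46.3, 96.8, 74.9, 127 and 166 CPM and its E5.5 value was 54.4, above the lowest E4.5 embryo (log2 fold change -0.84, SE 0.80, edgeR adjusted p = 0.80). The cells behind this value were uneven. All 24 E4.5 cells held Zfp42 reads, whereas 23 of 51 did at E5.5 (45.1%, 31.1 to 59.7%), of which 9 had over 100 CPM. As a mean over cells of log2(CPM + 1), which weighs the empty cells more, the difference of Zfp42 from E4.5 was -3.54, near that of Tbx3 (-3.48). With limma on cell means Zfp42 was called lower at a pseudocount of 0.1 (log2 difference -5.36, adjusted p = 0.0342) and not at 1 (adjusted p = 0.101). Cells with a Zfp42 read had a median of 6083 genes and those without 4942, and the part of this gap in the share was not tested. Thinned to 50000 reads, 16 of 51 cells (31.4%) held Zfp42 against 21 of 24 at E4.5.

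Prdm14, a PR-domain repressor that also marks germ cells, had 20 reads in E4.5 embryo 3 (4.70 CPM), 3 reads in embryo 4 and none in the other E4.5 embryos. No epiblast-marker cell of E5.5 or E6.5 held one (0 of 51 and 0 of 31, which allow shares of up to 5.88% and 9.68%). No change can be read from it.

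**Figure D2:**
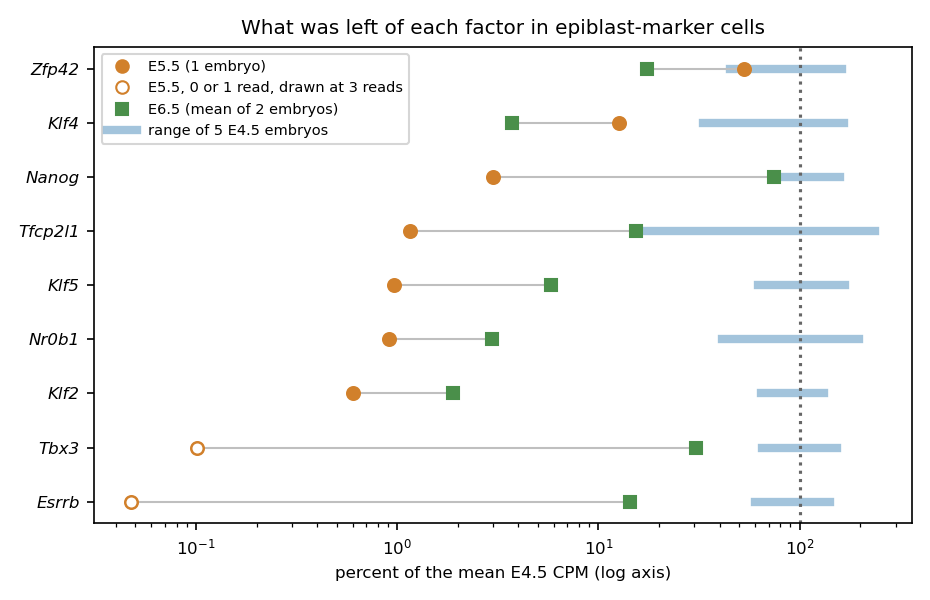
Percent of the mean E4.5 CPM left in epiblast-marker cells at E5.5 (circles, 1 embryo) and E6.5 (squares, mean of 2 embryos), on a log axis, with the range of the 5 E4.5 embryos as bars; Prdm14 is left out, and open circles stand for 0 or 1 read and are drawn at 3 reads. Zfp42 kept 53.2% at E5.5 and 17.4% at E6.5, whereas Nanog went from 2.98% to 74.4%.

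At E6.5, 5 factors were lower than at E4.5 past the threshold: Klf2, Klf4, Klf5, Esrrb and Nr0b1, where 1.71% of all genes were called lower and 0.993% higher. Nanog read 74.4% of its mean E4.5 level. Both comparisons share the E4.5 embryos. The median log2 fold change of the 10 was -3.44, beside 0.14 over all genes.

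The Krüppel-like factors and Nr0b1 were the low ones. Klf2 read 0.809 and 1.96 CPM in E6.5 embryos 1 and 2 (log2 fold change -5.77 from E4.5, SE 0.84, edgeR adjusted p = 0.00095), and Klf5 8.83 and 3.35 (-4.08, SE 0.74, edgeR adjusted p = 0.0057). Klf4 read 1.28 and 1.26 CPM, below the E5.5 value (-4.77, SE 1.13, edgeR adjusted p = 0.033). Nr0b1 read 0.977 and 9.27 CPM (-5.15, SE 0.95, edgeR adjusted p = 0.0067). All 4 lay below every E4.5 embryo. The calls of Klf5 and Nr0b1 each rested on 1 embryo at the E6.5 end: without E6.5 embryo 2 the edgeR adjusted p of Klf5 was 0.13, and without embryo 1 that of Nr0b1 was 0.062. Klf2 was called in 21 of 24 settings, and not with limma on cell means (adjusted p = 0.0753 and 0.107 at pseudocounts of 1 and 0.1) or with cells sorted by marker lists (edgeR adjusted p = 0.0555). Klf4 was called in 14 of 24. Among others, it was not called without either E6.5 embryo or without E4.5 embryo 3 or 4 (0.31, 0.39, 0.094 and 0.061), with limma (0.0770 and 0.0866), in all kept cells (0.110), by marker lists (0.165) or under the endoderm limit (0.515).

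Esrrb, Tbx3, Tfcp2l1 and Zfp42 stood in between. Esrrb read 16.7 and 5.91 CPM, 14.3% of E4.5 (-2.80, SE 0.71, edgeR adjusted p = 0.047), a call lost when any of E4.5 embryos 1, 2 and 3 or either E6.5 embryo was left out (edgeR adjusted p 0.054 to 0.49), in all kept cells (0.203), at a finer clustering (0.0548), in its 17 cells with fewer trophectoderm markers (0.10) and under the endoderm limit (0.283). Tbx3 read 15.8 and 6.98 CPM (30.5% of E4.5, edgeR adjusted p = 0.28). Tfcp2l1 read 14 and 25.2 CPM (15.4%, edgeR adjusted p = 0.096) and Zfp42 24.1 and 11.5 CPM (17.4%, edgeR adjusted p = 0.054). For Zfp42 this was below the E5.5 sum, but its mean over cells of log2(CPM + 1) was 3.25 at E6.5 against 2.54 at E5.5. Of these 4, Tfcp2l1 in embryo 2 alone overlapped the E4.5 range.

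Nanog read 82.4 and 69.6 CPM at E6.5, 1 value inside the E4.5 range and 1 just below it. From E4.5 the log2 fold change was -0.46 (SE 0.50, edgeR adjusted p = 0.73), and from E5.5 it was 4.52 (SE 0.91), which just missed the threshold (edgeR adjusted p = 0.051), so that a 25-fold higher level rests on a single E5.5 embryo and on a borrowed spread. Nanog was read in 30 of 31 cells (96.8%, 83.3 to 99.9%). All cells of E6.5 embryo 2 that were mesoderm-like held it too (23 of 23), at 34.8 CPM in sum.

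Against E5.5, 2 members were called higher at E6.5, Esrrb and Tbx3, where 0.0752% of all genes were called higher and 0.248% lower. In simulated counts edgeR found none of the changed genes in this comparison and made some false calls, so both calls are held loosely. The log2 fold change of Esrrb was 9.13 (SE 1.47, edgeR adjusted p = 0.011). The E6.5 mean of Tbx3 was at least 301-fold above the limit of 3 reads (edgeR adjusted p = 0.025), a call lost without E4.5 embryo 1 or either E6.5 embryo (edgeR adjusted p 0.052 to 0.082), with cells thinned (0.154), by marker lists (0.571) and under the endoderm limit (0.416). With limma on cell means neither was called (adjusted p = 0.212 and 0.112 for Esrrb and 0.242 and 0.149 for Tbx3 at pseudocounts of 1 and 0.1). The other members were not called, with Nr0b1, Klf2, Klf5 and Tfcp2l1 reading higher in the sums and Klf4 and Zfp42 lower. The direction turned for Klf4 (0.18 and 0.59) and Zfp42 (0.71 and 1.90) on means over cells of log2 at pseudocounts of 1 and 0.1.

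Within the E6.5 cells most factors went with the markers of other lineages, Tfcp2l1 and Tbx3 most closely, and Nanog went against them. Pearson r of log2(CPM + 1) was taken over 31 cells with the log2 sum of each marker list. With the trophectoderm list it was 0.71 for Tfcp2l1 and 0.58 for Tbx3. It was 0.42 for Klf2 and Esrrb, 0.41 for Klf5 and Zfp42 and 0.39 for Nr0b1, but -0.28 for Klf4 and -0.37 for Nanog. With the endoderm list it was 0.63 for Tfcp2l1, 0.54 for Tbx3, 0.46 for Klf2 and 0.34 for Klf5. There Zfp42 (0.19), Esrrb (0.17) and Nr0b1 (0.098) were weaker, Klf4 was at -0.049 and Nanog at -0.41. The points share 2 embryos, reads and depth, and no test was made. A finer clustering, used in this way after seeing the data, parted 17 cells with fewer trophectoderm markers raised (1 of 10) from 12 cells with more (5 of 10), with list sums of 535 and 793 CPM. The 17 cells also raised fewer epiblast markers (4 against 8 of 10) and no endoderm marker, against 3 of 15. In both embryos the 17 cells read less Tbx3 (15.1 against 29.5 CPM in embryo 1 and 2.04 against 20.6 in embryo 2), less Klf2 (0.453 against 2.41 and 0.0705 against 3.84) and less Nr0b1 (0.226 against 3.77 and 0.211 against 24.5). Nanog went opposite ways in the embryos, at 72.6 against 112 CPM in embryo 1 and 96.6 against 21.5 in embryo 2. So did Esrrb, at 21 against 11.4 CPM and 1.90 against 15.9. With the 17 cells alone at E6.5, 14.4% of the E4.5 Esrrb level and 22.9% of the Tbx3 level were left. Nr0b1 stood below its E5.5 value in both embryos. Klf2 did so in embryo 2 and on average (0.262 against 0.442 CPM), but not in embryo 1. Esrrb and Tbx3 were still called higher than at E5.5 (edgeR adjusted p = 0.025 and 0.049), and so was Nanog (0.038).

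**Figure D3:**
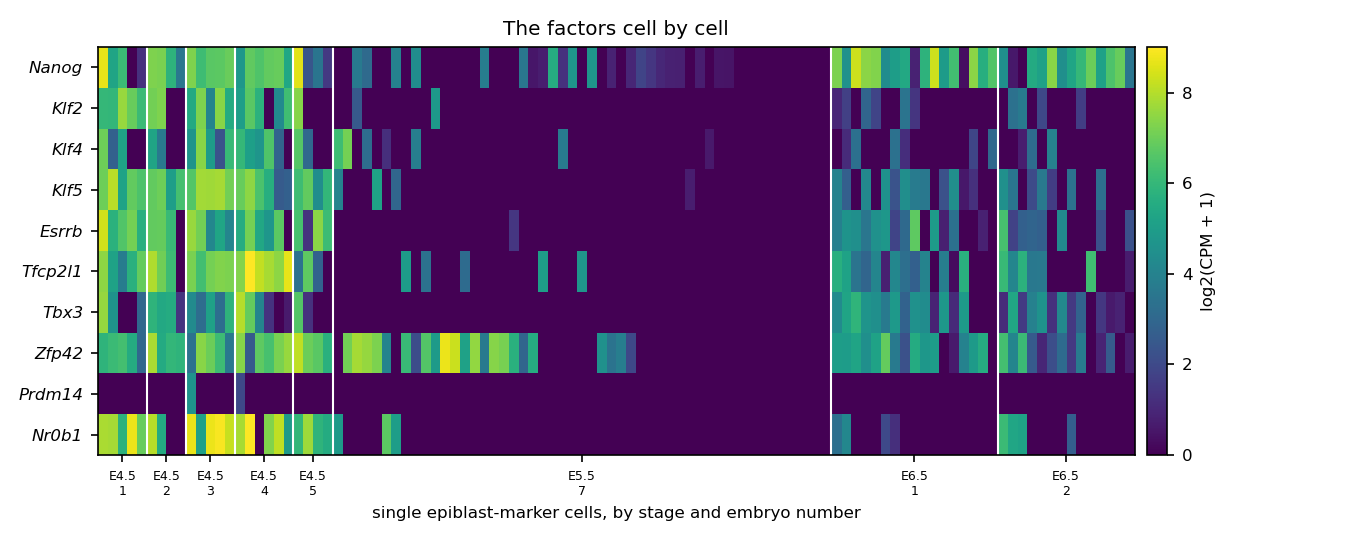
log2(CPM + 1) of the 10 factors (rows) in each of 106 epiblast-marker cells (columns), by stage and embryo number and, within an embryo, by falling mean of the factors; white lines part the embryos. At E4.5 most factors were read together, at E5.5 mainly Zfp42 and traces of Nanog were left, and at E6.5 Nanog ran through nearly all cells.

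Ranked by the share of the summed CPM left at E5.5, the order of fall was Esrrb and Tbx3 (0.0159% and 0 reads, not to be told apart at this depth), Klf2 (0.603%), Nr0b1 (0.907%), Klf5 (0.965%), Tfcp2l1 (1.16%), Nanog (2.98%), Klf4 (12.7%) and Zfp42 (53.2%). From Klf2 to Nanog the neighbours differed by less than the spread of the E4.5 embryos. That spread alone moved the Klf2 figure between 0.456% and 0.942% and the Tfcp2l1 figure between 0.490% and 6.92%. The Nanog figure, between 1.88% and 4.04%, lay inside the latter range. Klf4 lay between 7.66% and 38.5% and Zfp42 between 32.7% and 118%, so that these ranges overlapped as well. Zfp42 was last and Klf4 next to last in each of the 4 other choices that changed the cells of E4.5 or E5.5. Among those choices Nanog was left at up to 4.84% and Tfcp2l1 and Nr0b1 at up to 2.01% and 1.90%. The order was another on means over cells of log2(CPM + 1). There the differences from E4.5 to E5.5 were -6.07 for Klf5, -5.92 for Nr0b1, -5.48 for Esrrb and for Tfcp2l1, -4.47 for Nanog, -4.37 for Klf2, -3.54 for Zfp42, -3.48 for Tbx3 and -2.88 for Klf4. A gene that starts low cannot fall far on this scale, since Tbx3 had a mean of 3.48 at E4.5 and 0 at E5.5. The order of fall thus depended on the scale, and Zfp42 was last only by share of summed reads. Ranked by E6.5 the order was another: Klf2 (1.89%), Nr0b1 (2.97%), Klf4 (3.73%), Klf5 (5.82%), Esrrb (14.3%), Tfcp2l1 (15.4%), Zfp42 (17.4%), Tbx3 (30.5%) and Nanog (74.4%). Nanog was last in the 3 other choices of cells that changed this order's cells, but the places before it changed. With cells thinned Zfp42 (24.3%) stood above Tbx3 (23.5%) and Klf2 was at 7.75%, and under the endoderm limit Esrrb (15.7%) and Zfp42 (15.6%) stood above Tbx3 (12.1%), Klf4 was at 8.41% and Tfcp2l1 at 4.78%. In the 17 cells with fewer trophectoderm markers Nr0b1 was at 0.127%, Klf2 at 0.357% and Klf5 at 2.76%. On means over cells of log2(CPM + 1) the differences from E4.5 to E6.5 were -5.24 for Nr0b1, -4.41 for Klf5, -3.77 for Klf2, -3.46 for Tfcp2l1, -3.21 for Esrrb, -2.83 for Zfp42, -2.70 for Klf4, -0.77 for Tbx3 and -0.20 for Nanog.

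**Figure D4:**
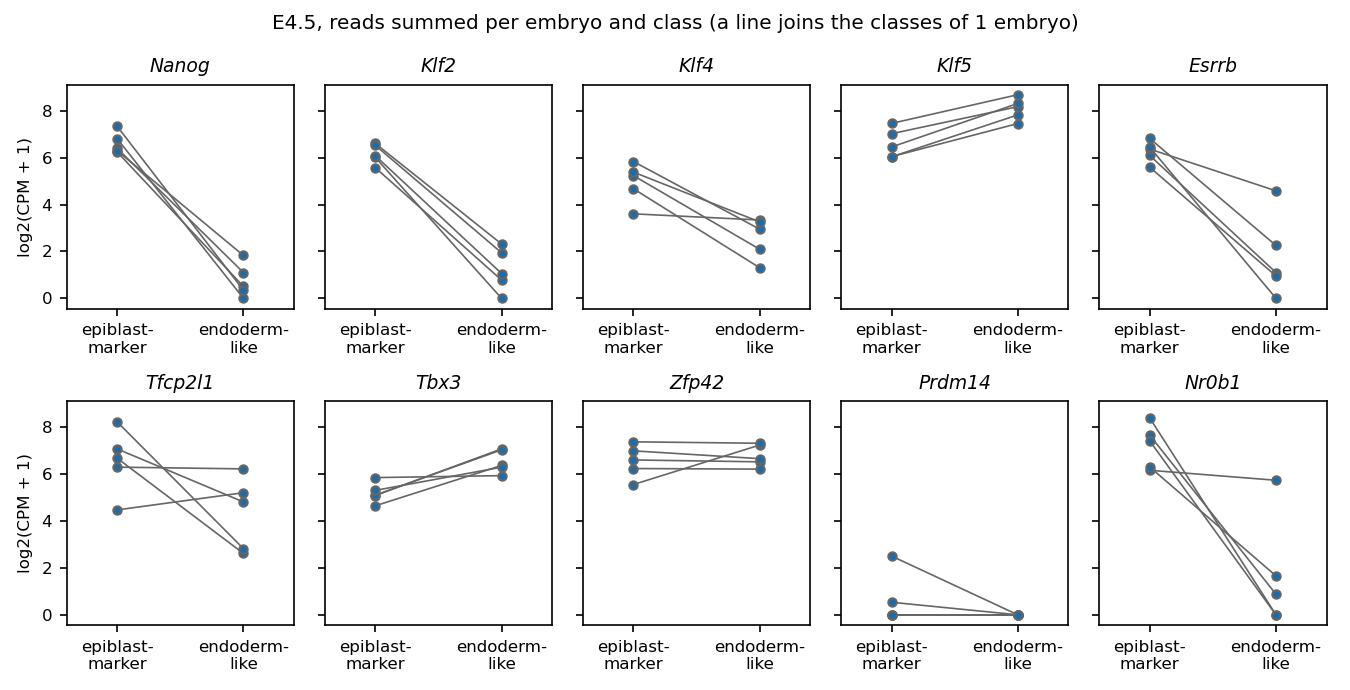
log2(CPM + 1) of the 10 factors in epiblast-marker and endoderm-like cells of the 5 E4.5 embryos, reads summed per embryo and class, with a line joining the classes of an embryo. Nanog, Klf2, Klf4, Esrrb and Nr0b1 were lower in endoderm-like cells of every embryo, and Klf5 and Tbx3 higher.

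The lineages of the inner cell mass differed in several factors at E4.5. In all 5 embryos Nanog, Klf2, Klf4, Esrrb and Nr0b1 were higher in epiblast-marker cells, and Klf5 and Tbx3 were higher in endoderm-like cells. For comparison, 9.5% of 11770 genes were higher in epiblast-marker cells of every embryo and 15.9% in endoderm-like cells, so that 2 of 10 members on the endoderm side are near the background. No test was made, since the classes were made from these cells. The embryo ranges of 6 members did not overlap: the 5 epiblast ones and Tbx3. Over all genes 4.53% lay above and 7.27% below in this way, and the 1 member below is again near the background.

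The epiblast side was steep for Nanog, which had a mean of 102 ± 36.3 CPM against 0.878 ± 1.03 (SD, n = 5), and for Klf2 (73.2 ± 20.7 against 1.73 ± 1.64). Esrrb stood at 79.3 ± 24.1 against 5.79 ± 9.76, Nr0b1 at 173 ± 109 against 11.1 ± 23.2, and Klf4 at 34 ± 17.1 against 5.85 ± 3.36. Averaged over cells as log2(CPM + 1), 3 of the 5 held in every embryo, whereas Klf4 and Nr0b1 were each higher in endoderm-like cells of 1 embryo. Tfcp2l1 was higher in epiblast-marker cells of 4 embryos (128 ± 106 against 29.7 ± 28.2), the exception being embryo 5 with 21.3 against 36.1 CPM. Embryo 5 had the most endoderm reads in its epiblast-marker cells (2381 CPM of the list), and their part was not tested.

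On the endoderm side Klf5 read 285 ± 90.8 CPM against 105 ± 47.9, and Tbx3 97.3 ± 33.5 against 37.3 ± 12.2. All 44 endoderm-like cells held both genes. Zfp42 was not parted by class: it was higher in epiblast-marker cells of 4 embryos and overlapped, at 115 ± 37.9 CPM in endoderm-like and 102 ± 46.5 in epiblast-marker cells. Embryo 2 had the fewest endoderm reads in its epiblast-marker cells, 17.5 CPM of the list, from 5 of its 15 genes. In those cells Klf5 was at 87.1, Zfp42 at 96.8, Tfcp2l1 at 102 and Tbx3 at 33.6 CPM. The part of endoderm reads in these values was not tested.

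Endoderm-like cells also read little Tbx3 at E5.5. In 8 such cells Tbx3 was at 0.256 CPM and Klf5 at 35, both below every E4.5 embryo, whereas Tfcp2l1 at 42.6 and Zfp42 at 79.7 lay within the E4.5 range. Nanog was at 0.447 and Klf4 at 6.13 CPM, and Klf2, Esrrb, Nr0b1 and Prdm14 had no read. With 1 embryo no spread can be given. At E6.5 the endoderm-like cells of embryo 1 (12 cells) and embryo 2 (2 cells) read 65.1 and 37.8 CPM of Tbx3, 63.5 and 34.6 of Tfcp2l1 and 19 and 27.4 of Klf5. Each of these was above the epiblast-marker cells of the same embryo, as was Klf4. The E6.5 endoderm-like cells also raised 7 of 10 trophectoderm markers, with list sums of 1420 and 964 CPM in embryos 1 and 2, and the part of these reads was not tested. Nanog and Esrrb were the other way round. Over all genes, 27.2% were higher in epiblast-marker and 30.9% in endoderm-like cells of both E6.5 embryos, against 2 and 4 of the 10 members, shares near this background. The endoderm-like cells of embryo 2 had 3 or fewer reads of Klf2, Klf4, Esrrb, Zfp42 and Nr0b1.

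Single cells carried most of the factors at E4.5 and few at E5.5. Epiblast-marker cells held reads of a median of 8.5 of the 10 factors at E4.5 (4 to 10), 1 in the E5.5 embryo (0 to 3) and 5 by E6.5 (2 to 9). Of the E5.5 cells, 10 of 51 held none. Thinned to 50000 reads per cell, with no cell left out, the medians were 7, 0 and 2. At least 7 factors were read in 19 of 24 E4.5, 0 of 51 E5.5 and 12 of 31 E6.5 cells, and after thinning in 15, 0 and 0 cells. Endoderm-like cells at E4.5 held a median of 5 factors, 4 after thinning. The E5.5 cells were read deeper than those of E4.5 (medians of 1497628 and 799907 reads), with fewer genes (5599 and 6954).

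**Figure D5:**
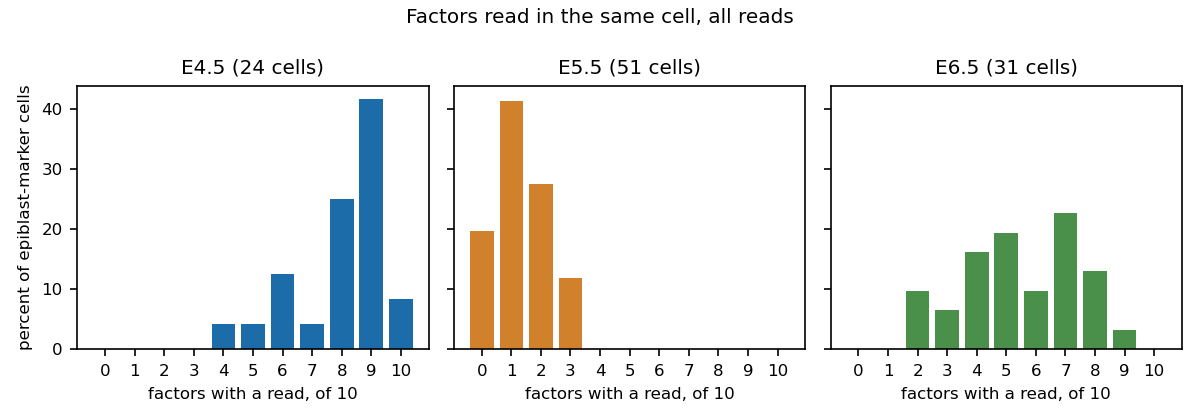
Percent of epiblast-marker cells (vertical axis) by how many of the 10 factors had a read in the cell (horizontal axis), for 24 E4.5, 51 E5.5 and 31 E6.5 cells, all reads used. The E4.5 cells sit between 4 and 10 factors, the E5.5 cells between 0 and 3 and the E6.5 cells between 2 and 9.

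Across the 24 E4.5 epiblast-marker cells most pairs of factors varied the same way, with no other gene pairs set beside them. Of 36 pairs without Prdm14, 30 had a positive Pearson r of log2(CPM + 1), with a median of 0.30 (0.26 with embryo means removed). The closest pair was Nanog and Klf4 (r = 0.72), followed by Nanog and Tbx3 (0.57), Klf4 and Tbx3 (0.57) and Klf5 and Tbx3 (0.54). Zfp42 had a negative r for 6 of its 8 pairs, down to -0.27 with Klf5, and with embryo means removed for 5 of 8, down to -0.16. At E6.5, 23 of 36 pairs were positive over 31 cells (median 0.24), and Nanog was negative with 7 of the 8 other factors, from -0.12 with Esrrb to -0.44 with Nr0b1. Esrrb and Zfp42 (0.52) and Tfcp2l1 and Tbx3 (0.51) were the closest pairs there. Cells share embryos, and depth enters every value, so these are descriptions without a test.

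Of a list of 20 other naive genes, all tested, 7 were called lower in the E5.5 and 14 in the E6.5 cells against E4.5, and 4 between the later stages, where 0.323%, 1.71% and 0.248% of all genes were called lower. The median log2 fold changes were -3.33 to E5.5 and -5.53 to E6.5. Tcl1, a cofactor of AKT, went from 74 ± 46.5 CPM to no read at either later stage (edgeR adjusted p = 0.0090 and 0.00033), and Nr5a2, a nuclear receptor, from 19.1 ± 12.6 CPM to none (0.23 and 0.037). Spp1, which encodes osteopontin, went from 1075 ± 583 CPM to 49.4 at E5.5 and 2.70 and 7.26 at E6.5 (edgeR adjusted p = 0.062 and 8.17e-05). Tet2, a dioxygenase that oxidizes methylcytosine, went from 60.8 ± 22 CPM to 0.505, then 0.944 and 0.512 (edgeR adjusted p = 0.043 and 0.0016). Dppa2, which marks the germ line and embryonic stem cells, was low by E6.5 and not at E5.5: it read 127 ± 46.6 CPM at E4.5, 89.7 at E5.5, and 0.944 and 0.699 at E6.5 (edgeR adjusted p = 0.92 and 5.59e-05). The homeobox gene Gbx2 read 31.4 ± 20.2 CPM, 0.946, then 0.270 and 0 (edgeR adjusted p = 0.33 and 0.019).

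Of 15 regulators of exit and formative genes, 1 was called lower and 1 higher in the E5.5 cells, and 3 lower and 1 higher in the E6.5 cells, against E4.5. Over all genes 0.323% were called lower and 0.173% higher in the former, and 1.71% and 0.993% in the latter. The median log2 fold changes were -0.55 and 0.01. Dnmt3b, a de novo DNA methyltransferase, rose from 379 ± 114 CPM to 1695 at E5.5 and 1212 and 1994 at E6.5 (edgeR adjusted p = 0.0090 and 0.00086). The bHLH factor Tcf15 fell from 240 ± 82.8 CPM to 25.8, then 9.10 and 9.64 (edgeR adjusted p = 0.049 and 0.00010). The Notch effector Rbpj was lower at E6.5 (edgeR adjusted p = 0.00086) and not called at E5.5 (0.080).

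Over 16 sums of at least 3 cells (embryo by class), the genes whose level was most like the mean of the 10 factors were Nsd1 (r = 0.92), Mymx (0.90), Plpp1 (0.90), Calcoco2 (0.89) and Ube2dnl1 (0.89), among 8086 genes. Of the members themselves, Klf2 was closest to the mean of the others (r = 0.89), then Esrrb (0.80) and Nr0b1 (0.79), and the least close were Zfp42, Nanog and Tbx3 (all 0.38). The sums share embryos and stages, and the r values are descriptions.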

How the data were processed

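The data are RNA reads from 264 single cells. Per the labels, reads were trimmed with Trim Galore 0.4.2, aligned to GRCm38 with HISAT2 2.1.0 and counted with featureCounts; the annotation used for counting is not given in the sources used here. The authors deposited whole-number counts per gene without normalization. CPM and log2(CPM + 1) were computed from them. Symbols were matched for 21907 of 22084 identifiers, and exon lengths and positions come from GENCODE M21.

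Cells with 50000 reads and 2000 genes were kept. Cells were clustered within E4.5 and within E6.5 (scanpy 1.11.5, Leiden, resolution 0.5, 2000 variable genes, 20 components, 15 neighbours) without the 10 factors and 20 other naive genes. A cluster was named for the marker list of which most genes (at least 3) were higher by 1 or more in log2 terms and read in 50% of its cells. At E5.5, endoderm-like cells were those in which Amn, Apoa1, Cubn and Dab2 all reached 10 CPM. Doublets were not called.

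Per embryo, the counts of epiblast-marker cells were added up. The sums of all 8 embryos entered 1 quasi-likelihood fit in edgeR 4.0.16, with TMM scaling, filterByExpr and Benjamini-Hochberg adjustment over all genes (threshold 0.05). On simulated counts with the spread of these embryos, edgeR found few of the genes changed by a moderate fold, and none of them between E6.5 and E5.5, and more of its calls were false than the threshold allows. Most calls of DESeq2 were false there, and limma found nearly none of the changed genes. A missed call is therefore weak evidence of no change, and calls by DESeq2 alone carry little weight. The embryo is the replicate. The order of fall was taken on summed CPM and, as an alternative, on means over cells of log2(CPM + 1). The 5 E4.5 embryos are as labelled; the study's methods count fewer. DESeq2 1.42.0, limma 3.58.1 and other choices were run as alternatives. All members, and up to 6 genes a list by size of change from E4.5 to E6.5, are named, and 1 gene of a list is not reported here. The members and lists were chosen with earlier results of these data known. Reads carry no molecular identifiers, so intervals and limits of 3 reads cover counting error only.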

Additional observations from a re-analysis of the deposited data

Results flagged for a closer look

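Of 19 sets of 5 E4.5 embryo values (a factor in a class), 3 held an embryo far from the rest. Chance gives about 1 in 20 for normally spread values. In these 3 sets the other embryos read at most 3.78 CPM, down to 0, so that this rate cannot be applied to them. Prdm14 in epiblast-marker cells read 4.70 CPM in embryo 3, and the next embryo 0.451. Esrrb in endoderm-like cells read 23.1 CPM in embryo 3, from 89 reads in 5 cells, and the next embryo 3.78. Nr0b1 in endoderm-like cells read 52.7 CPM in embryo 2, from 92 reads in 4 cells, and the next embryo 2.17. Klf4 was higher in epiblast-marker than in endoderm-like cells of all 5 E4.5 embryos (mean difference 28.1 CPM) and lower in both E6.5 embryos (mean difference -1.38 CPM), where it was at or under 3.69 CPM throughout; the difference was not tested.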

How the results depend on the processing

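Main counts were 5 members lower at E5.5, 5 lower at E6.5 and 2 higher from E5.5 to E6.5. The cause of any move below was not tested. Leaving out 1 embryo gave 3 to 7, 2 to 6 and 1 to 3 members; genes ranged from 28 to 67 (43 with all embryos), 81 to 276 (228) and 4 to 16 (10). The lowest counts came without E4.5 embryo 3 (3 members at E5.5, with 28 genes, and 3 at E6.5) and without either E6.5 embryo (2 members lower, with 102 genes without embryo 1 and 81 without embryo 2; 1 higher, with 4 genes each); without E4.5 embryo 1, 1 member was higher. With limma on mean log2(CPM + 1) or log2(CPM + 0.1), 2 or 3 members (115 or 217 genes) were lower at E5.5 and 0 higher from E5.5 to E6.5 (187 or 413 genes); at an unadjusted p under 0.05 edgeR held 5 members there. With lineage from marker lists 1, 3 and 1 members passed (20 genes lower at E5.5, 2 higher from E5.5). DESeq2, no filter and thinning each gave 7 members lower at E5.5 and 7 at E6.5. DESeq2 gave 465, 689 and 135 genes, with 4 members higher from E5.5, no filter on low counts 163, 425 and 61, again with 4, and only 2 stages in the fit 469 genes and 4 members. All kept cells gave 131 and 401 genes lower, and thinning to 50000 reads 106 lower at E5.5 and 27 higher from E5.5. In cells under 1000 CPM of the endoderm list, a choice made after seeing the data that leaves 1 embryo at E6.5, 123 genes were lower at E6.5 and 2 higher from E5.5, with 1 member.

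Of 620 single values of members, 521 kept direction and side of the threshold, 49 lost and 39 gained the call, and 11 turned direction, none of them called in either fit. Nanog from E4.5 to E6.5 was 0.45 (log2) in all kept cells and 0.14 by marker lists. From E5.5 to E6.5, Klf2 was -0.73 by marker lists, -0.75 in the 17 E6.5 cells with fewer trophectoderm markers and -5.94 in cells under the endoderm limit; Klf4 was 0.18 and 0.59, and Zfp42 0.71 and 1.90, with limma at pseudocounts of 1 and 0.1; Nr0b1 was -2.86 in the 17 cells and, with 1 embryo left out, between -0.73 (without E6.5 embryo 2) and 2.30. On log2 means, 3 rather than 5 members were higher in epiblast-marker cells of every E4.5 embryo.

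Embryo numbers did not pair the stages: same-numbered E4.5 and E6.5 embryos deviated with r of -0.00803 and 0.00478 over 13298 genes. With embryo number as a replicate block, which could be fitted for E6.5 against E4.5 only, 5 members and 315 genes were lower; Tfcp2l1 was called (adjusted p = 0.0048) and Klf4 was not (0.061).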
